A study of Ovis aries with 24 samples.

Results

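JUNB, FOS, EGR1, MYC and ZFP36 are immediate early genes, and their transcripts were followed before and after birth in a sheep vessel that closes, the ductus arteriosus, and in the ascending aorta. The members were all probes whose name or description on the array gives one of these 5 genes, which selected 12 of 15008 probes: 4 for EGR1 and 2 for each of the others. The rule reads only names, but these 5 genes were picked with earlier results of these data known. All 12 probes passed the filter on dim signals, so every member was tested.

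Each of the 6 groups held 4 arrays. Ductus and ascending aorta were taken from preterm fetuses at 97 days of gestation, from near-term fetuses at 136 days and from newborn lambs at 12 hours of age, with full term at 145 days. The sample titles give 100 and 140 days for the fetal stages, where the labels give 97 and 136. No genotype, drug or surgical treatment separates the groups, and ewes and lambs of all groups were killed with the same barbiturate solution. The labels speak of 4 animals in each group. They do not say whether the ductus and the aorta that carry the same number came from 1 animal.

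Immediate early genes are transcribed within minutes of a stimulus such as a growth factor, stretch or a change in oxygen, without new protein synthesis, and most of their mRNAs are short-lived. JUNB and FOS proteins pair to form the transcription factor AP-1, EGR1 is a zinc finger transcription factor, and MYC with its partner MAX drives genes of growth and metabolism. ZFP36, also called tristetraprolin, is no transcription factor: it binds AU-rich elements in mRNAs of cytokines and of other immediate early genes and speeds their decay. The ductus is the fetal shunt between the pulmonary artery and the aorta. It constricts after birth as blood oxygen rises, and its wall is then remodelled while the neighbouring aorta remains a conduit.

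Levels are the log2 of the processed signal relative to the 75th percentile of the same array, and a probe's level is compared between groups only, never with that of another probe. The sums of marker levels given further on are the exception. Where a gene is named without a probe number, the values are those of its brightest probe. Differences come from 1 limma fit over all 24 arrays, given in log2 with the standard error after ±, and p-values were adjusted over 14000 probes in each comparison. A call means an adjusted p under 0.05. RNA came from whole vessel segments, so a change in the share of cells that express a gene and a change of RNA per cell cannot be told apart.

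The arrays lay on 3 slides, 1 for each stage, with the ductus in 1 column and the aorta in the other. Slide and stage cannot be told apart, nor can column and vessel, and newborn ductus against newborn aorta is a comparison within 1 slide. A spike-in detection limit above 1.5 marked 12 of the 24 arrays, but 0 of the 4 newborn ductus arrays, and these arrays had more probes well above background. Smooth muscle was represented by CNN1 and MYLK, which were detected on every array. At birth CNN1 was called higher in the aorta, where its mean was 5.32 near term and 6.15 in newborns. In the ductus both markers had negative values (median -0.46) and 0 of 2 were called. The difference between the vessels in these birth changes had a median of -0.86, with 0 of 2 called. The endothelial markers PECAM1, CDH5 and VWF were not among the named probes. Across all probes the median birth change was -0.32 in the ductus and -0.23 in the aorta, so a value of 0 on this scale lies above that of most probes.

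In the newborn ductus all 5 members had their highest group mean, as had all 12 probes and 14.3% of the probes on the array. JUNB, ZFP36 and MYC rose at birth in the ductus, by 12.7-fold, 3.78-fold and 3.15-fold. JUNB also rose in the aorta, by 3.31-fold, and it was the only member of the 5 called there. FOS and EGR1 were called at birth in neither vessel, yet both were higher in the newborn ductus than in the newborn aorta, as were JUNB and ZFP36. Before birth no member was called between the vessels or between the fetal stages. Among all probes tested, 4.16% were called higher at birth in the ductus, 3.01% in the aorta and 4.84% in the newborn ductus against the newborn aorta. Members called higher numbered 3, 1 and 4 of 5 in these comparisons.

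**Figure D1:**
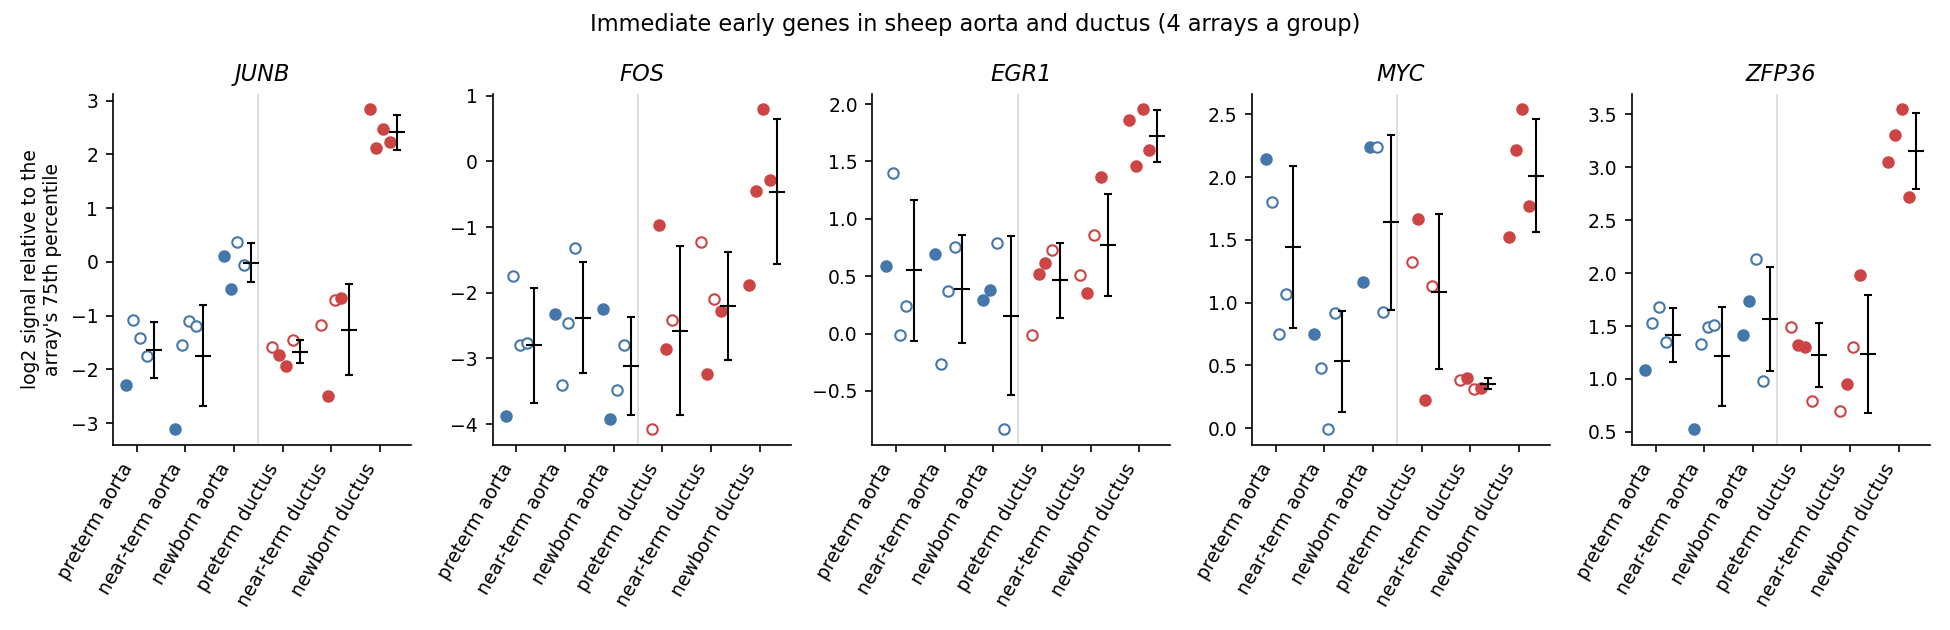
Level of each gene's brightest probe (y axis, log2 signal relative to the array's 75th percentile) in the 6 groups (x axis), with 1 point per array, blue for aorta and red for ductus; open points are arrays with a spike-in detection limit above 1.5, and the black marks are group means with SD (n = 4). The 4 newborn ductus arrays lay above all other 20 arrays for the brightest probes of JUNB, EGR1 and ZFP36, but not for those of FOS and MYC; 1.74% of all probes met this criterion.

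JUNB, a partner in AP-1 that in many settings restrains the activity of its relative JUN, showed the largest birth change of the 5 members. The near-term ductus arrays read -1.18, -2.49, -0.71 and -0.67, and the newborn ductus arrays 2.83, 2.11, 2.47 and 2.22. Every newborn array thus lay above 0 and every near-term array below it. The difference was 3.67 ± 0.41 (adjusted p = 1.04e-05, limma). In the near-term aorta the arrays read -3.11, -1.56, -1.11 and -1.20, and in the newborn aorta 0.11, -0.50, 0.37 and -0.06. The aortic groups did not overlap either, and the aortic rise was 1.73 ± 0.41 (adjusted p = 0.0162). It rested in part on near-term aorta replicate 1, the lowest of the 24 arrays: without that array the rise was 1.27 (adjusted p = 0.0526). When the aortic groups were fitted alone its adjusted p was 0.177.

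Newborn ductus exceeded newborn aorta in JUNB by 2.43 ± 0.41 (adjusted p = 0.00085), a 5.38-fold difference. The arrays did not overlap, as was so in the higher direction for 6.26% of all probes. The rise in the ductus was larger than the rise in the aorta by 1.94 ± 0.58, which was not called over all probes (adjusted p = 0.249). Without near-term aorta replicate 1 that difference was 2.40 (adjusted p = 0.0371). The preterm arrays read -2.30, -1.08, -1.41 and -1.76 in the aorta and -1.58, -1.73, -1.94 and -1.45 in the ductus. In order of the mean, newborn ductus and newborn aorta stood first and second without overlap, and the 4 fetal groups followed between -1.26 and -1.74 with overlapping arrays. The other JUNB probe gave 3.84 ± 0.39 in the ductus (adjusted p = 2.76e-06), 1.38 ± 0.39 in the aorta (adjusted p = 0.0377) and 2.46 ± 0.55 for the difference between the vessels (adjusted p = 0.0537).

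FOS, the AP-1 subunit best known for a rapid and brief induction, was the most scattered member in the newborn ductus. Its arrays there read -1.88, -0.45, 0.79 and -0.29, against -1.23, -3.23, -2.09 and -2.28 in the near-term ductus. The groups overlapped, because the lowest newborn array lay under the highest near-term array. The birth difference in the ductus was 1.75 ± 0.65 (adjusted p = 0.087), which was not called. In the aorta the near-term arrays read -2.33, -3.40, -2.46 and -1.32 and the newborn arrays -2.25, -3.92, -3.49 and -2.80, a difference of -0.74 ± 0.65 (adjusted p = 0.549). The sign was opposite to that in the ductus.

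The newborn vessels nevertheless separated in FOS. All 4 newborn ductus arrays lay above all 4 newborn aorta arrays, by 2.66 ± 0.65 on average, a 6.31-fold difference (adjusted p = 0.0132). Newborn ductus replicate 3 was the highest of the 24 arrays, and without it the difference was 2.24 (adjusted p = 0.0521). The birth changes of the vessels differed by 2.49 ± 0.93, which was not called (adjusted p = 0.439). Preterm arrays spread widely, from -4.08 to -0.96 in the ductus and from -3.88 to -1.74 in the aorta, and all groups next to each other in the order of means overlapped. The other FOS probe gave 1.87 ± 0.69 at birth in the ductus (adjusted p = 0.083) and 2.69 ± 0.69 between the newborn vessels (adjusted p = 0.0163).

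EGR1, which in vessels is induced by shear, injury and hypoxia, showed a smaller but tighter difference. The newborn ductus arrays read 1.86, 1.46, 1.95 and 1.60, against 0.51, 0.35, 0.86 and 1.36 in the near-term ductus. The groups did not overlap, as was so in the higher direction for 7% of all probes, but the difference of 0.95 ± 0.34 was not called (adjusted p = 0.0764). Near-term ductus replicate 4 was the highest fetal ductus array, and without it the difference was 1.15 (adjusted p = 0.0397). In the aorta the near-term arrays read 0.70, -0.27, 0.37 and 0.76 and the newborn arrays 0.29, 0.38, 0.79 and -0.83. These overlapped fully, with a difference of -0.23 ± 0.34 (adjusted p = 0.709).

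Between the newborn vessels EGR1 was higher in the ductus by 1.56 ± 0.34 (2.96-fold, adjusted p = 0.00622). Fitted on the newborn groups alone, the adjusted p was 0.0568 for EGR1 and 0.0582 for FOS. The birth changes of EGR1 differed by 1.18 ± 0.48 (adjusted p = 0.506). Apart from the newborn ductus, all groups overlapped their neighbours in the order of means, from 0.77 in the near-term ductus to 0.16 in the newborn aorta. The preterm arrays ran from -0.01 to 1.40 in the aorta and from -0.01 to 0.73 in the ductus.

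The 4 EGR1 probes fell into pairs. Probes 1 and 2, designed on an EGR1 mRNA, correlated across the arrays with r = 0.987, and probe 2 gave 0.96 ± 0.35 at birth in the ductus (adjusted p = 0.0809) and 1.5 ± 0.35 between the newborn vessels (adjusted p = 0.00989). Probes 3 and 4, designed on an expressed sequence tag, were dimmer and followed probe 1 less closely, with r = 0.55 and r = 0.282. Their differences between the newborn vessels were 1.00 ± 0.35 (adjusted p = 0.0682) and 1.81 ± 0.69 (adjusted p = 0.0931), neither of them called. Probe 4 was well above background on only 21 of the 24 arrays, among them 2 of the 4 newborn aorta arrays. The sign of the newborn difference was the same with all 4 probes.

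MYC followed another course, with its lowest levels near term. The near-term ductus arrays lay close together at 0.38, 0.40, 0.31 and 0.32, and the newborn ductus arrays read 1.52, 2.21, 2.54 and 1.77. The rise of 1.66 ± 0.36 was called (adjusted p = 0.00573). In the aorta the near-term arrays read 0.75, 0.48, -0.01 and 0.91 and the newborn arrays 1.16, 2.24, 2.24 and 0.92. Here too the groups did not overlap, as was so in the higher direction for 5.75% of all probes, though the closest arrays differed by about 0.01. The aortic difference of 1.11 ± 0.36 was 2.15-fold and was not called (adjusted p = 0.0755). Without newborn aorta replicate 4, the lowest newborn array, it was 1.35 (adjusted p = 0.0268).

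MYC was the only one of the 5 members not called between the newborn vessels. The difference was 0.37 ± 0.36, with a 95% interval from -0.39 to 1.13 (adjusted p = 0.470), and the arrays overlapped. The birth changes of the vessels differed by 0.55 ± 0.51, with an interval from -0.52 to 1.62 (adjusted p = 0.867). These intervals are wide enough to hold a difference of 2-fold and do not show that the vessels were alike. The other MYC probe rose in the ductus by 1.54 ± 0.30 (adjusted p = 0.00222), but differed by 0.32 ± 0.30 in the aorta (adjusted p = 0.562) and by 0.89 ± 0.30 between the newborn vessels (adjusted p = 0.0618). The MYC probes correlated with r = 0.828 across the 24 arrays, and neither was called in the aorta.

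From the preterm to the near-term stage MYC differed by -0.91 ± 0.36 in the aorta (adjusted p = 0.35) and by -0.73 ± 0.36 in the ductus (adjusted p = 0.457). The preterm arrays read 2.15, 1.80, 0.75 and 1.07 in the aorta and 1.33, 1.67, 0.22 and 1.13 in the ductus. Neither fetal difference was called, and in both vessels the newborn mean lay above the preterm mean as well. In order of the mean, newborn ductus stood at 2.01 and near-term ductus at 0.36, and every group overlapped the next.

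ZFP36, the mRNA decay factor, had its 4 newborn ductus arrays above all 20 remaining arrays with both probes, as had JUNB with both and EGR1 with probes 1 and 2 of 4. Of all probes, 1.74% showed this. The arrays of the brighter ZFP36 probe read 3.05, 3.30, 3.54 and 2.71, against 0.70, 0.95, 1.31 and 1.99 in the near-term ductus. The rise was 1.92 ± 0.29 (adjusted p = 0.000304). The near-term aorta arrays read 0.53, 1.33, 1.49 and 1.51 and the newborn aorta arrays 1.42, 1.74, 2.13 and 0.98. These groups overlapped, and the aortic difference was 0.35 ± 0.29, with a 95% interval from -0.26 to 0.97 (adjusted p = 0.523).

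Newborn ductus exceeded newborn aorta in ZFP36 by 1.59 ± 0.29, which was 3.00-fold with no overlap of arrays (adjusted p = 0.00188). The ductus rise exceeded the aortic change by 1.56 ± 0.42, with an interval from 0.70 to 2.43, which was not called over all probes (adjusted p = 0.144). The 5 groups other than the newborn ductus had means between 1.21 and 1.57 and overlapped each other in order. The dimmer ZFP36 probe gave a larger rise in the ductus, 3.27 ± 0.45 (adjusted p = 9.39e-05), and 0.70 ± 0.45 in the aorta (adjusted p = 0.414). Its difference between the newborn vessels was 2.37 ± 0.45 (adjusted p = 0.00231), and that between the birth changes was 2.58 ± 0.64 (adjusted p = 0.103). The lowest near-term ductus array with this probe read -4.67, against -2.08 to -2.52 for the other 3. From preterm to near term this probe stood at 1.19 ± 0.45 in the ductus (adjusted p = 0.322) and 1.03 ± 0.45 in the aorta (adjusted p = 0.42), uncalled, where the brighter probe stood at 0.01 ± 0.29 and -0.20 ± 0.29. Averaging both ZFP36 probes gave a difference between the birth changes of 2.07 (adjusted p = 0.0372).

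**Figure D2:**
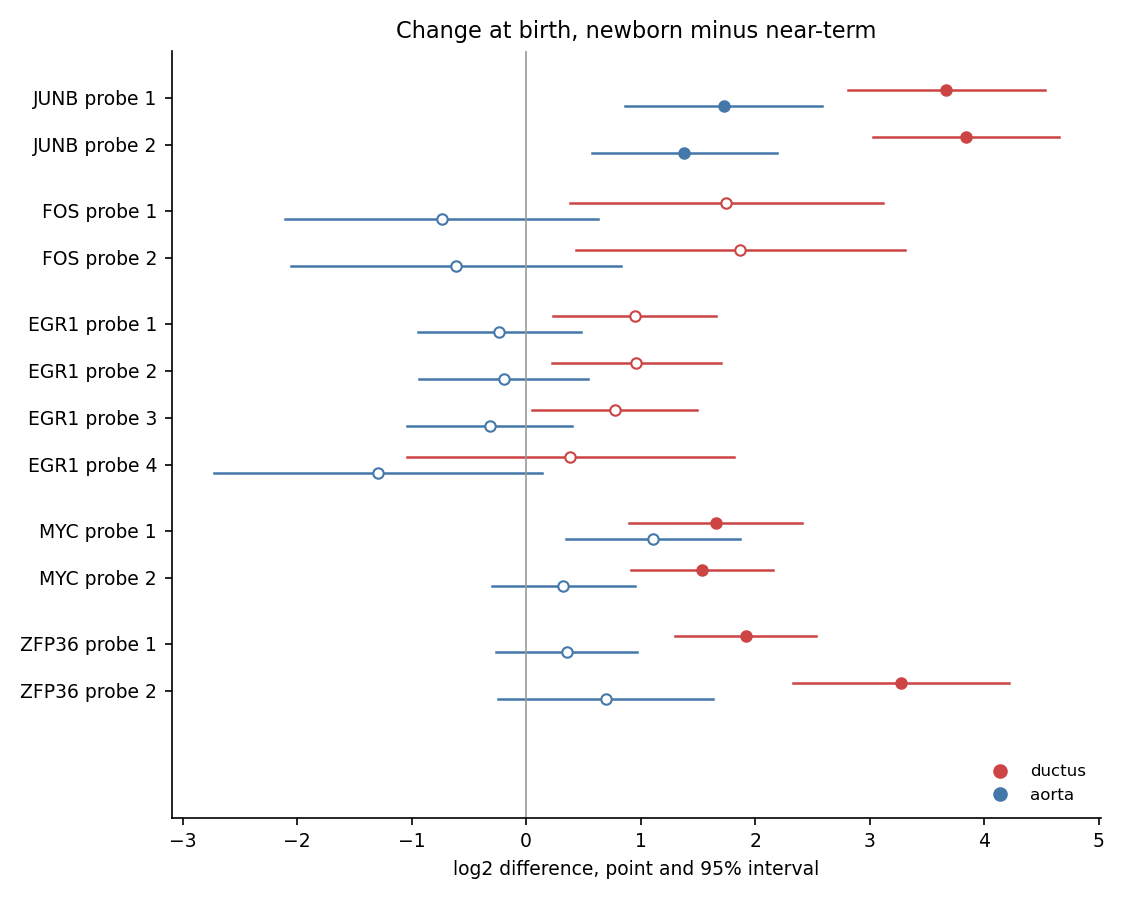
Birth change, newborn minus near-term (x axis, log2 difference with its 95% interval), of all 12 probes (y axis) in the ductus (red) and the aorta (blue); filled points were called at an adjusted p under 0.05. In the ductus 6 of 12 probes were called, those of JUNB, MYC and ZFP36, and in the aorta the 2 JUNB probes.

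Sorting the members by vessel therefore gave 1 gene called at birth in both vessels, JUNB, and 2 called in the ductus alone, ZFP36 and MYC. Of all probes, 1.24% were called higher at birth in both vessels. A call in 1 vessel and not in the other does not show that the vessels differed, and the direct test of that difference called 0 of 5 members and 0 of 12 probes (limma), and at most 1 member under the alternative settings. For comparison, 0.35% of all probes were called with a larger change in the ductus. At an unadjusted p under 0.05 the difference held for 4 of 5 members, JUNB, ZFP36, FOS and EGR1, and for 10 of 12 probes, against 3.91% of all probes with a larger change in the ductus at that threshold. All 5 members and all 12 probes had the larger value in the ductus, with a median over the members of 1.56 against -0.21 over all probes. In the aorta JUNB rose, MYC and ZFP36 had positive values that were not called, and FOS and EGR1 had negative ones that were not called.

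**Figure D3:**
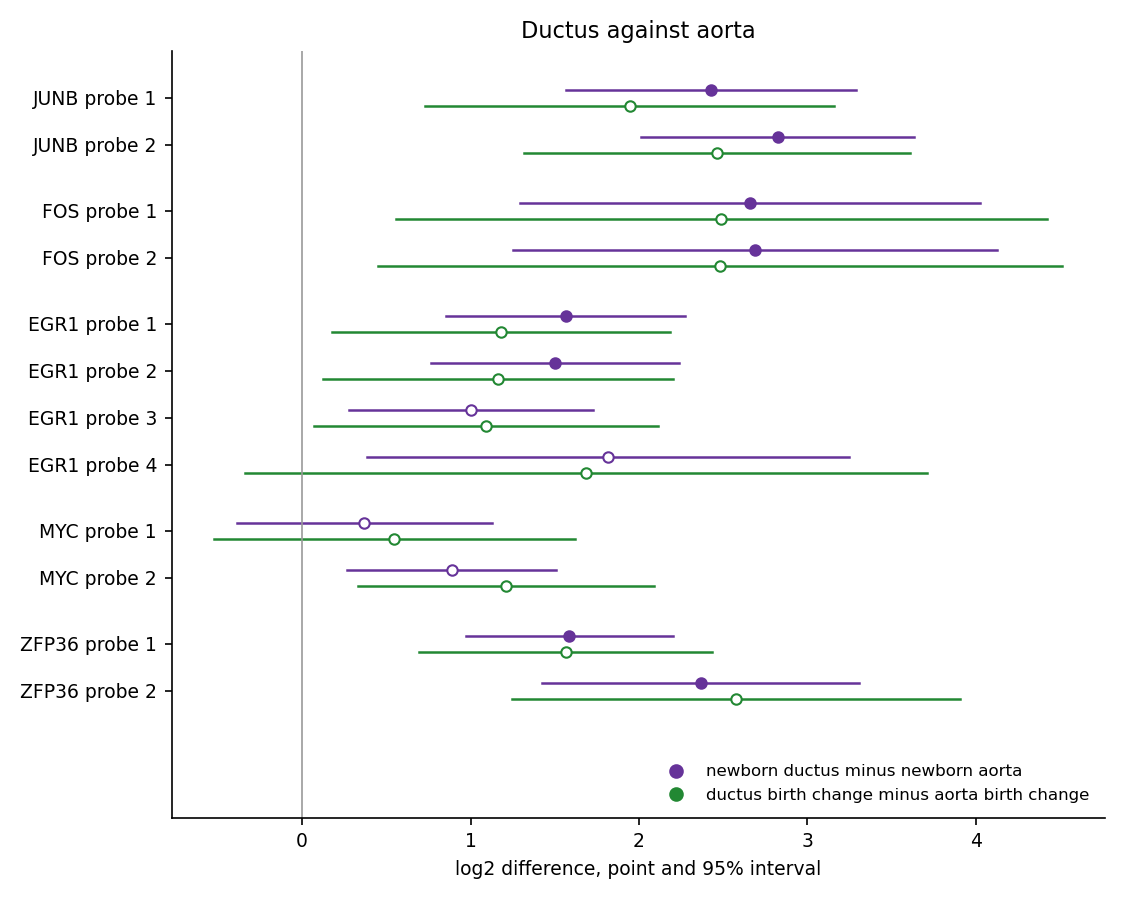
Difference between newborn ductus and newborn aorta (purple) and between the birth changes of ductus and aorta (green) for all 12 probes (y axis), on a log2 scale with 95% intervals (x axis); filled points were called at an adjusted p under 0.05. The newborn difference was called for 8 of 12 probes and the difference of the birth changes for 0 of 12, although 10 of those 12 intervals lay above 0.

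Since all newborn ductus arrays had a spike-in limit under 1.5, the ductus comparison was repeated among arrays under that limit, 4 newborn against 2 near-term. The rises were 3.99 for JUNB (adjusted p = 0.00382), 1.68 for ZFP36 (adjusted p = 0.0274) and 1.65 for MYC (adjusted p = 0.0750), so MYC lost its call. FOS stood at 2.30 (adjusted p = 0.129) and EGR1 at 0.86 (adjusted p = 0.120). Between the newborn vessels under that limit, 4 ductus against 2 aorta arrays, JUNB, ZFP36 and EGR1 kept their calls with 2.60, 1.58 and 1.39, and FOS stood at 2.63 (adjusted p = 0.0812). Only 1 near-term aorta array, replicate 1, lay under the limit, and it was the lowest of that group for JUNB and ZFP36. The aortic change and the difference of the birth changes under the limit would rest on that array and are not given. Among the 5 aortic arrays above the limit the rise of JUNB was 1.44 (adjusted p = 0.103).

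Before birth the members gave little separation. Between the vessels near term, differences of the brightest probes ran from -0.18 to 0.48, and 0 of 5 were called, with 0 of 5 at an unadjusted p under 0.05 (limma). Preterm they ran from -0.36 to 0.22, again with 0 of 5 called and 0 of 5 at an unadjusted p under 0.05. From preterm to near term the range was -0.73 to 0.42 in the ductus and -0.91 to 0.42 in the aorta. There 0 of 5 members were called in each vessel, with 0 of 5 and 1 of 5 at an unadjusted p under 0.05, the latter being MYC. Over the 12 probes 0 were called in either vessel, and the dimmer ZFP36 probe was at an unadjusted p under 0.05 in both. Over all probes 1.15%, 0.7%, 0.3% and 0.486% were called in these 4 comparisons, in either direction.

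The members did not follow one another equally over the 24 arrays. JUNB and ZFP36 were the closest pair, with r = 0.889, and their deviations from the group means correlated at 0.554. FOS and MYC were the least alike over the 24 arrays, at 0.235. Within groups they stood at 0.099, and the lowest pair there was JUNB and MYC at -0.171. Among 690 named genes, the 3 most like JUNB were SELP, PDXK and TIMP1 at 0.906, 0.905 and 0.893, and those most like ZFP36 were JUNB, TIMP1 and IGFBP3 at 0.889, 0.882 and 0.859. For EGR1 they were the glucose transporter SLC2A3, the prostaglandin synthase PTGS2 and MCL1, at 0.813, 0.769 and 0.732. For FOS they were the chemokine receptor CXCR4, SLC2A3 and CD40, at 0.782, 0.750 and 0.686. MYC had lower values, 0.675, 0.651 and 0.650, with IFNAR1, EEF1E1 and AQP2. These coefficients are descriptive: the arrays share 6 groups, and within groups the r of TIMP1 with JUNB was 0.034 while that of CXCR4 with FOS was 0.660.

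Other immediate early genes were measured in part, 7 of 47 listed. At birth in the ductus 3 of the 7 were higher and 0 lower, with a median of 1.58 against -0.32 over all probes, of which 4.16% were called higher. PTGS2, the inducible enzyme of prostaglandin synthesis, rose by 3.65 ± 0.30 (adjusted p = 2.13e-07), although its second probe had the opposite sign. MCL1, a survival factor of the BCL2 family, rose by 1.90 ± 0.23 (adjusted p = 2.41e-05), and NFKBIA, the inhibitor of NF-kB, by 1.58 ± 0.30 (adjusted p = 0.00198). IRF1 stood at 1.65 ± 0.54 (adjusted p = 0.0559). JUN, the usual partner of FOS, stood at -0.70 ± 0.54 (adjusted p = 0.351), and JUND and CCN1 were not called either. In the aorta 0 of the 7 were called, with 1 at an unadjusted p under 0.05 (limma), and the median was 0.18. For PTGS2 and MCL1 the ductus change exceeded the aortic change, by 3.40 (adjusted p = 0.000306) and 1.73 (adjusted p = 0.0145).

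Of mRNAs known as ZFP36 targets, 9 of 15 listed were tested. At birth in the ductus 5 were higher and 0 lower, with a median of 1.88 against -0.32 over all probes. In that comparison 4.16% of all probes and 46 of 691 named genes were called higher. ZFP36 itself rose in the same comparison, and a link between these rises was not tested. CXCL8, a neutrophil-attracting chemokine, rose by 4.45 ± 0.32 (adjusted p = 6.21e-08) and IL1B by 1.88 ± 0.47 (adjusted p = 0.0138). IL6 and IL10 rose as well, IL6 from signals well above background on 1 of 4 near-term arrays to 4 of 4 newborn arrays, and PTGS2 belongs to this list too. IL6 reached the filter's minimum of 4 arrays only through the newborn ductus, the group where it was high. Its call therefore adds no support to the count of 5. In the aorta CXCL8 alone was called, with 3.00 ± 0.32 (adjusted p = 8.23e-05).

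Target genes of AP-1 and EGR1 in the vessel wall gave 3 higher and 0 lower of 10 tested at birth in the ductus. Their median was 0.57 against -0.32 over all probes, of which 4.16% were called higher. TIMP1, an inhibitor of matrix metalloproteinases, rose by 2.44 ± 0.20 (adjusted p = 1.84e-07), the leukocyte adhesion molecule ICAM1 by 2.46 ± 0.38 (adjusted p = 0.000313) and TGFB1 by 1.00 ± 0.20 (adjusted p = 0.00235). TIMP1 was called in the aorta as well, at 0.73 ± 0.20 (adjusted p = 0.0315), but that call was lost under 11 of 19 other settings. Among these were 6 of the 8 that left out 1 aortic array, which gave 0.58 to 0.90 (adjusted p up to 0.118). PDGFB, a growth factor for smooth muscle, was lower there by -1.30 ± 0.35 (adjusted p = 0.029). The TIMP1 changes differed between the vessels by 1.71 (adjusted p = 0.00429). Of MYC partners and targets only 3 of 20 listed were measured. LDHA, a glycolytic enzyme, was higher by 0.98 ± 0.27 (adjusted p = 0.0248) and the ribosomal protein gene RPL32 lower by -0.65 ± 0.17 (adjusted p = 0.0205) at birth in the ductus. The LDHA call was lost under 7 of 18 other settings, among them those without near-term ductus replicate 1 or 2 or newborn ductus replicate 1 (0.83 to 1.11 with 1 array left out, adjusted p up to 0.0861). The RPL32 call was lost under 9 of 18, among them those without near-term ductus replicate 1 or 3 or newborn ductus replicate 3 or 4 (-0.76 to -0.57, adjusted p up to 0.0706). Of upstream regulators, 3 of 24 listed were measured, and CREM, a cAMP-responsive transcription factor, was higher in the ductus by 0.77 ± 0.14 (adjusted p = 0.00185), with 2 of its 4 probes of that sign.

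**Figure D4:**
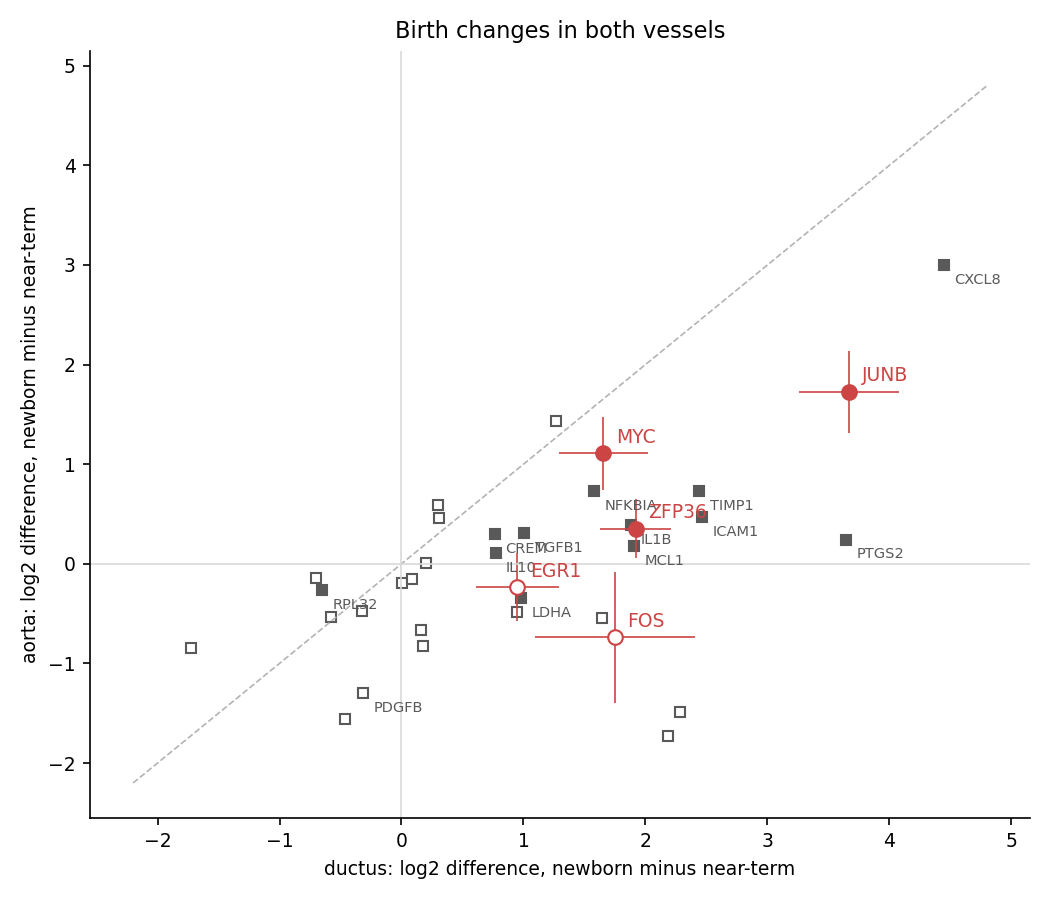
Birth change (newborn minus near-term, log2) in the ductus (x axis) against that in the aorta (y axis) for the 5 members (red circles, with standard errors) and 30 genes of the 5 lists of related genes (grey squares); filled symbols were called in the ductus, the dashed line marks equal change, and gene names mark calls in either vessel. JUNB lay at 3.67 and 1.73, ZFP36 at 1.92 and 0.35, MYC at 1.66 and 1.11, and all 5 members fell below the line; IL6, not well above background in the aorta, is not drawn.

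Some markers of other cells differed in the newborn ductus. Summed levels add different probes of a cell type, so the brightest markers weigh most in them. The summed level of the 4 endothelial markers measured (NOS3, KDR, TEK and SELP), in multiples of the 75th percentile, ran from 2.07 to 2.99 in the newborn ductus and reached at most 1.64 elsewhere. NOS3 and SELP weighed most, with newborn ductus means of 0.56 and -0.58 in log2, against -2.94 for KDR and -3.60 for TEK. SELP, the adhesion receptor P-selectin, was the 1 of the 4 called at birth in the ductus, by 3.01 ± 0.38 (adjusted p = 3.73e-05). NOS3 stood at 0.95 ± 0.35 (adjusted p = 0.0807), but KDR, the main VEGF receptor of endothelium, at -0.63 ± 0.25 (adjusted p = 0.104), so the markers did not move together. KDR was called lower in the aorta, by -0.92 ± 0.25 (adjusted p = 0.0331). For 3 macrophage markers (CD14, CD86 and CD80) the sum ran from 1.11 to 1.44 in the newborn ductus, from 0.652 to 1.25 in the newborn aorta and at most to 0.640 in the fetal groups. CD14 weighed most in this sum, with a newborn ductus mean of 0.03 in log2, against -2.44 for CD86 and -6.53 for CD80. CD14 was called higher at birth in both vessels, while CD80 stood at -1.32 ± 0.84 in the ductus (adjusted p = 0.257). CD80 was well above background on 0 of the 4 newborn ductus arrays.

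Mast cell markers went the other way. The summed level of TPSB2, KIT and FCER1A ran from 13.7 to 19.9 in the near-term ductus and from 2.56 to 5.46 in the newborn ductus, and from 5.35 to 9.48 and 2.02 to 4.12 in the aorta. TPSB2 weighed most in these sums, with a near-term ductus mean of 3.80 in log2, against 1.34 for FCER1A and -5.07 for KIT. TPSB2, a mast cell tryptase, fell by 2.15 ± 0.27 in the ductus (adjusted p = 3.72e-05) and by 1.26 ± 0.27 in the aorta (adjusted p = 0.0086), and FCER1A fell by 1.27 ± 0.39 in the ductus (adjusted p = 0.0403). The sums of 5 lymphocyte markers overlapped between newborn ductus and near-term ductus, at 0.326 to 0.776 and 0.257 to 0.735. Of these, CXCR4 had a positive value and the other 4 negative ones, with a median of -1.81 and 0 of 5 called at birth in the ductus (limma), and 2 of 5, CXCR4 and IL2RA, at an unadjusted p under 0.05. CD3D, CD4 and IL2RA were each well above background on 0 of 4 newborn ductus arrays, so their negative values rest on signals near background. The neutrophil markers CATHL1B and BAC5 were both called lower in the newborn ductus than in the newborn aorta (median -3.63). Near term their median was -3.20, with 0 of 2 called, and 0 of 2 were called at birth in the ductus. Each was well above background on 1 of 4 newborn ductus arrays. Of 4 fibroblast markers, DCN and C3 were called higher in the newborn ductus than in the newborn aorta. COL1A1 and COL3A1 had negative values there that were not called, and the median of the 4 was 0.41. Among 691 named genes 66 were higher and 28 lower there. The part of these cells in the members' changes was not tested.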

How the data were processed

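Total RNA of ductus and aorta segments was labelled with Cy3 and hybridised to 1-colour Agilent arrays, per the labels' protocols. Each deposited value is the intensity of 1 spot, not yet logged, from which Agilent Feature Extraction 9.5.3.1 had subtracted a fitted background surface, per the file headers. No spot of a member was flagged or saturated. Flagged outlier spots and controls were left out, log2 was taken relative to the 75th percentile of each array (322.1 to 1143), and probes well above background on at least 4 of 24 arrays were tested, 14000 of 15008. Probes were named from the array's names and RefSeq names (ARS-UI_Ramb_v3.0), 1277 in all. Group means of all 24 arrays were fitted in limma 3.58.1 with lmFit and eBayes under R 4.3.3, with two-sided p-values and Benjamini-Hochberg adjustment. Simulated data held changes in the newborn ductus alone, in fewer probes than the 1541 called at birth in the ductus. There 64% of changes of log2 2 were recovered for the birth change in the ductus and 44% for the difference between the vessels. For changes of log2 1 these shares were 30% and 8%. Recovery depends on how many probes change, and the simulated noise was drawn separately for each probe and array, without effects shared within an array. These shares are therefore not the sensitivity in the arrays themselves.

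The members and gene lists were chosen with earlier results of these data known. Members are named with all probes, list genes by the smallest p at birth in the ductus (at most 4 a list, with IL10, PDGFB, JUN, JUND and CCN1 named after their values were seen), and likeness by Pearson's r. With 4 arrays a group the number of arrays limits the precision. The p-values set a difference against the spread between arrays within the 6 groups. Each stage lay on 1 slide, so that spread holds no variation between slides. Deviations of same-numbered ductus and aorta arrays correlated from -0.586 to 0.821 (median r = 0.059 over 12 pairs, 6 over 0.1). For other numbers the median was -0.015, with 14 of 36 pairs over 0.1. This check does not settle whether the numbers mark pairs. The labels do not say so, and the main fit did not use them as pairs. Among 276 pairs of arrays 0 were identical. Alternatives covered background correction, scaling, filters, probes, samples fitted, spike-in limit, replicate block and leaving out each array.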

Additional observations from a re-analysis of the deposited data

Results flagged for a closer look

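This closer look took list genes with the smallest p at birth in the ductus, at most 4 a list, and detected in both vessels. Of these, 3 had birth changes that differed between the vessels by limma's test of that difference. Picking by the ductus p favours such differences, because the ductus change is part of them. The ductus change exceeded the aortic change by 1.73 for MCL1 (adjusted p = 0.0145), by 3.40 for PTGS2 (adjusted p = 0.000306) and by 1.71 for TIMP1 (adjusted p = 0.00429). These are values of the brightest probes, and the second PTGS2 probe had the opposite sign at birth in the ductus. None of the 5 members passed the same test. Over whole lists the test called 2 of 9 ZFP36 targets, PTGS2 among them, and 1 of 4 endothelial markers. No array of a member probe stood apart by Dixon's criterion in any of 72 sets of 4 arrays; the nearest was near-term ductus replicate 2 with the dimmer ZFP36 probe, at -4.67.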

How the results depend on the processing

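Of the 5 members, 0 were called in either fetal change or between the fetal vessels under any setting run. The 3 calls at birth in the ductus became 4 with normexp background correction and with no setting fewer than 2; leaving out 1 array gave 3 to 4. At birth in the aorta the 1 call became 0 when only the groups compared were fitted and among arrays with a spike-in limit above 1.5, and leaving out 1 array gave 0 (without near-term aorta replicate 1) to 2 (without newborn aorta replicate 4). Without that last array EGR1 changed sign in the aorta, uncalled both times, with a range of -0.45 to 0.10 over single arrays left out. Between the newborn vessels the 4 calls became 2 when only those groups were fitted, and leaving out 1 array gave 3 to 4. The difference of the birth changes went from 0 calls to 1 with normexp (JUNB, 2.26), with the mean over a gene's probes (ZFP36, 2.07), with the spike-in limit as a covariate (JUNB, 2.13) and without near-term aorta replicate 1 (JUNB), within a range of 0 to 1. With the replicate block, fixed or random, it was also 1 (ZFP36, adjusted p = 0.0213 and 0.0439); the block's consensus correlation was 0.179, and the numbers are not stated to pair samples. Cause was not tested for any of these. No member called in all arrays reversed.

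Counts over all probes moved more: from 615 to 5469 around 1541 at birth in the ductus, from 0 to 1538 around 892 in the aorta, from 33 to 141 around 57 for the difference, and from 377 to 2303 around 1445 between the newborn vessels. Of the genes set beside the members, TIMP1 in the aorta lost its call under 11 of 19 settings, and in the ductus RPL32 lost it under 9, LDHA under 7, IL1B under 3 and CREM under 1 of 18. The difference between the vessels lost its call under 3 settings for MCL1, 2 for TIMP1 and 1 for PTGS2, of 27. Median centring raised the ductus birth change of JUNB to 3.98 and that of EGR1 to 1.26. Probes near background, such as EGR1 probe 4, give the least secure values. Fewer arrays in a group limit the tests that leave out arrays or split them.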
